A study of Mus musculus with 10 samples.

Results

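The unfolded protein response was examined through 10 genes: the stress sensors *Ern1*, *Eif2ak3* and *Atf6*, the transcription factor *Xbp1*, and their targets in the endoplasmic reticulum (ER), *Hspa5*, *Hsp90b1*, *Pdia4*, *Sdf2l1*, *Dnajb9* and *Herpud1*. They were chosen by name among 27024 named rows of the expression table, and all 10 were found, each on 1 row. RNA came from bEnd.3 cells, an immortalised mouse brain endothelial line with a wild-type genotype, kept in serum-containing medium. StcE is a mucinase, a bacterial protease whose substrates are densely O-glycosylated proteins, and the protein used had been passed over endotoxin removal columns. It was given at 5 nM for 16 h to 5 samples (replicates 1, 2, 3, 5 and 6), and 5 samples (replicates 1 to 5) received the same volume of saline for 16 h. No group given an inactive enzyme was analysed here, and all samples came from a single cell line. The labels do not say whether replicates were separate cultures, so the spread between samples, against which p-values set a difference, may be technical. Of the 10 genes, 1 fell after StcE (*Pdia4*), by 5.72% of its mean, and the other 9 did not pass the test, where 11.9% of all genes tested passed it and 6.41% were lower. The call for *Pdia4* held in 9 of 22 alternative fits.

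Values are FPKM, fragment counts divided by gene length and by the depth of the sample. This puts genes and samples on a common scale, although the summed FPKM still ran from 319733 (saline replicate 2) to 352365 (saline replicate 1). Fragments recovered from the FPKM came to between 21865204 and 33148306 per sample. All 10 endothelial marker genes had a mean of at least 1 FPKM, with summed levels of 1701 to 1844 FPKM with saline and 1614 to 1703 with StcE. The summed markers of pericytes, astrocytes, macrophages, neurons, fibroblasts and epithelial cells each reached at most 0.246 FPKM in every sample. In RNA from bulk samples, fewer cells that express a gene and less of its RNA per cell cannot be told apart.

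Proteins that enter the secretory pathway fold in the lumen of the ER with the help of chaperones. When unfolded proteins build up, 3 sensors in the ER membrane respond. IRE1 (*Ern1*) is a kinase and ribonuclease that splices *Xbp1* mRNA, which then encodes an active transcription factor. PERK (*Eif2ak3*) phosphorylates eIF2α, which slows translation but favours that of *Atf4*. ATF6 (*Atf6*) travels to the Golgi, where the proteases encoded by *Mbtps1* and *Mbtps2* release its transcription factor domain. These factors raise the genes of chaperones, disulfide enzymes and ER-associated degradation, the route by which misfolded proteins are returned to the cytosol. FPKM per gene does not separate spliced from unspliced *Xbp1*, and neither the cleavage of ATF6 nor any phosphorylation was measured.

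The promoters of the members were searched for letters that this response is known to use. ATF6 with NF-Y binds the ER stress response element (ERSE), which reads CCAAT, any 9 bases and CCACG. A shorter form, ERSE-II, reads ATTGG, any base and CCACG. Both were searched on both strands of the RefSeq promoters of GRCm38.p6, from 250 bases before to 50 bases after each gene's start. Of 27025 genes with a promoter, 37 held ERSE (0.137%) and 12 held ERSE-II (0.0444%). Among the 9 of the 10 genes with a promoter, *Hspa5* held ERSE once, *Hsp90b1* held it 2 times and *Herpud1* held ERSE-II once. ERSE with any base at its last position, which includes every ERSE, was found in 0.429% of genes, among them *Herpud1* (from base 18 before the start to the start itself, left in lower case below) and *Pdia4*. *Atf6* was not matched in the promoter table. *Sdf2l1* and *Dnajb9* held none of these 3 forms. The windows below show in capitals the ERSE of *Hspa5* and *Hsp90b1*, the ERSE-II of *Herpud1* and, for *Pdia4*, ERSE with another last base, from base 70 to base 41 before the start of *Hspa5*, base 220 to 66 for *Hsp90b1*, base 110 to 1 for *Herpud1* and base 240 to 1 for *Pdia4*. They are given because ERSE is the element through which ATF6 is known to act on such genes, and a match is a description of the letters, not of binding.
*Hspa5* (chr2:34772020-34772049, + strand): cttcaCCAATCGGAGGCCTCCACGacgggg
*Hsp90b1* (chr10:86705510-86705664, - strand): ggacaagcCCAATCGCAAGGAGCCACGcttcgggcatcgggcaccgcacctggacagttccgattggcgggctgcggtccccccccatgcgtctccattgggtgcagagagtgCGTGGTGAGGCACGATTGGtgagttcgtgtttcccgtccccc
*Herpud1* (chr8:94386319-94386428, + strand): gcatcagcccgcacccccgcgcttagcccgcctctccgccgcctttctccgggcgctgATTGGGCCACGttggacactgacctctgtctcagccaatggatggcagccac
*Pdia4* (chr6:47813513-47813752, - strand): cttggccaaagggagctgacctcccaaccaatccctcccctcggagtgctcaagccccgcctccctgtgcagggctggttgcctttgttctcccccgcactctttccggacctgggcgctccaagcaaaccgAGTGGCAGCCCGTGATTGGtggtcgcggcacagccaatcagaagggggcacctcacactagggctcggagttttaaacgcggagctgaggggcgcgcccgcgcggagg

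In GENCODE vM21 the window of *Hspa5* lies in the first exon of a transcript that starts upstream of the RefSeq start, and the windows of the other genes overlap no exon. The genes differed widely in level. *Hspa5* had the highest mean of the 10 over all samples (214.2 FPKM, rank 195 of the 27024 rows), followed by *Hsp90b1* (209.0), *Pdia4* (81.3), *Sdf2l1* (32.4), *Xbp1* (23.4), *Atf6* (15.3), *Herpud1* (13.3), *Dnajb9*, *Eif2ak3* (5.52) and *Ern1* (2.86 FPKM, rank 8831). The luminal chaperones *Hspa5* and *Hsp90b1* thus stood far above the sensors on the scale of FPKM. The luminal co-chaperone *Dnajb9* (7.49 to 8.43 FPKM over all samples) lay below the sensor *Atf6*, whereas *Sdf2l1* lay above it. The ranges of *Hspa5* and *Hsp90b1* overlapped, although *Hspa5* was higher in 10 of 10 samples. The ranges of *Atf6* and *Herpud1* also overlapped, with *Atf6* higher in 9 of 10 samples. All other neighbours in this order were separated in every sample.

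**Figure D1:**
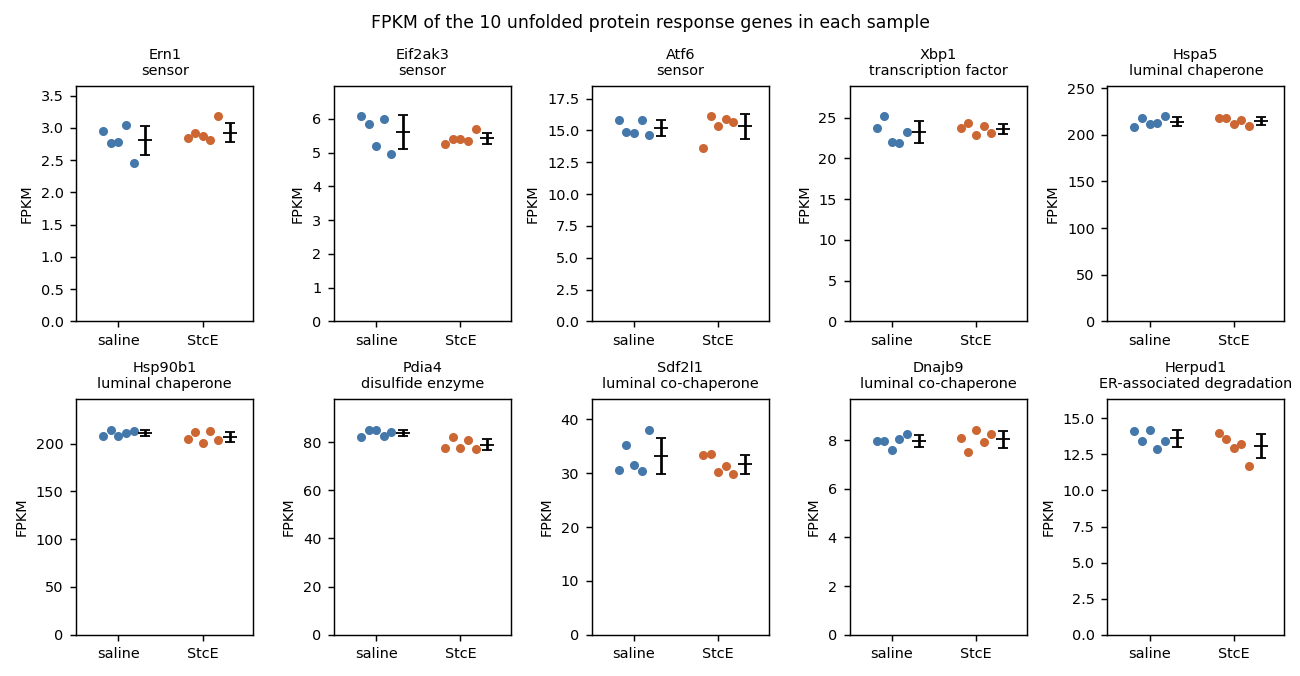
FPKM (vertical axes, from 0) of each gene in the 5 saline (blue) and 5 StcE (orange) samples, with the mean and SD of each group in black. The groups overlap in every panel except that of *Pdia4*, where the highest StcE sample (81.9 FPKM) lies just under the lowest saline sample (82.1 FPKM).

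The comparison of StcE with saline asks whether mucin cleavage at the cell surface was followed by a change in these genes. Across 11062 genes with a mean of at least 1 FPKM, 11.9% passed the threshold of a limma adjusted p under 0.05 (5.52% higher and 6.41% lower after StcE). Of the 10 genes, all of which were among those tested, 0 were higher and 1 was lower. The share of the 10 past the threshold was 10.0%, close to that of all genes. At an unadjusted p under 0.05 the counts were again 0 higher and 1 lower, and limma's voom on fragments recovered from the FPKM also gave 0 higher and 1 lower. The median log2 fold change of the 10 was -0.011, against -6.6e-04 over all genes tested. Fold changes are differences of log2(FPKM + 1), which understate changes of the genes with low FPKM.

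Among the sensors, *Ern1* (ENSMUSG00000020715.9, GRCm38 chr11:106394650-106487852) had 2.96, 2.77, 2.78, 3.05 and 2.46 FPKM in saline replicates 1 to 5 and 2.84, 2.92, 2.88, 2.82 and 3.18 FPKM in StcE replicates 1, 2, 3, 5 and 6. All 5 StcE samples lay above the saline mean, but within or close to the saline range. The log2 fold change came to 0.046 (95% interval -0.057 to 0.15, limma adjusted p = 0.571). Voom on 489 to 815 fragments per sample, which does not use the pseudocount of 1 on FPKM, gave 0.058 (-0.060 to 0.18).

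*Eif2ak3* (ENSMUSG00000031668.14, chr6:70844515-70905245), the PERK gene, had 6.07, 5.85, 5.18, 6.01 and 4.96 FPKM with saline and 5.26, 5.40, 5.41, 5.35 and 5.70 FPKM with StcE, in the same order of replicates. The StcE samples fell inside the saline range. The fitted log2 fold change was -0.038 (95% interval -0.15 to 0.070, limma adjusted p = 0.664). *Gm43292* on the opposite strand shares 8.05% of its exon length.

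*Atf6* (ENSMUSG00000026663.6, chr1:170704674-170867771) had 15.8, 14.9, 14.8, 15.8 and 14.6 FPKM with saline and 13.6, 16.1, 15.4, 15.9 and 15.6 FPKM with StcE. StcE replicate 1 was the lowest and StcE replicate 2 the highest of all 10 samples. On the log2 scale the difference was 0.010 (95% interval -0.084 to 0.10, limma adjusted p = 0.910).

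*Xbp1* (ENSMUSG00000020484.18, chr11:5520659-5525893), the mRNA spliced by IRE1 and itself a target of the response, had 23.7, 25.1, 22.1, 21.9 and 23.3 FPKM with saline and 23.8, 24.3, 22.8, 24.0 and 23.1 FPKM with StcE. Every StcE sample lay within the saline range. Its log2 fold change was 0.023 (95% interval -0.057 to 0.10, limma adjusted p = 0.725).

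*Hspa5* (ENSMUSG00000026864.13, chr2:34771970-34777547) encodes BiP, the Hsp70 chaperone of the ER lumen and the usual marker of the response. It had 208.0, 217.5, 211.5, 212.7 and 219.6 FPKM with saline and 218.0, 218.2, 211.3, 215.9 and 209.7 FPKM with StcE. The group means were 213.8 ± 4.69 and 214.6 ± 3.93 FPKM (SD, n = 5 each), and the StcE samples all fell within the saline range. The log2 fold change was 0.0053 (95% interval -0.043 to 0.054, limma adjusted p = 0.908). The interval thus ran from a fold of 0.970 to 1.04, on 20630 to 31982 fragments per sample.

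*Hsp90b1* (ENSMUSG00000020048.13, chr10:86690209-86705509) encodes GRP94, the Hsp90 of the ER. Its FPKM was 207.5, 214.5, 207.8, 211.4 and 213.5 with saline and 205.3, 212.2, 200.9, 213.3 and 203.7 with StcE. StcE replicates 1, 3 and 6 were the lowest of the 10 samples, whereas replicates 2 and 5 lay among the saline values. The fitted log2 fold change was -0.027 (95% interval -0.077 to 0.023, limma adjusted p = 0.490). Other genes share 5.38% of its exon length on the same strand and 10.3% on the opposite strand.

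*Pdia4* (ENSMUSG00000025823.9, chr6:47796141-47813430), which encodes the disulfide isomerase ERp72, had 82.1, 84.9, 85.1, 82.6 and 84.0 FPKM with saline and 77.5, 81.9, 77.4, 80.8 and 77.2 FPKM with StcE. The groups did not overlap, as was the case for 10.7% of all genes tested, but the gap between StcE replicate 2 and saline replicate 1 was narrow. *Pdia4* fell from 83.7 ± 1.35 to 78.9 ± 2.23 FPKM (SD, n = 5 each), or -0.084 on the log2 scale (95% interval -0.14 to -0.033, limma adjusted p = 0.0394). An exact two-sided permutation test of this single difference gave p = 0.00794, the smallest that 5 samples against 5 allow.

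The call for *Pdia4* rested on a small margin. Over 22 alternative fits its log2 fold change stayed between -0.098 and -0.075, and 9 of the 22 passed the threshold, with adjusted p from 0.0228 to 0.178. Of the 10 fits that each left out 1 sample, 2 passed it, those without StcE replicate 2 (adjusted p = 0.0228) and without StcE replicate 5 (0.0490). The adjusted p was 0.0564 without saline replicate 1, 0.0794 without saline replicate 2, 0.0885 without saline replicate 3, 0.0561 without saline replicate 4 and 0.0677 without saline replicate 5. It was 0.0842 without StcE replicate 1, 0.0985 without StcE replicate 3 and 0.0730 without StcE replicate 6.

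**Figure D2:**
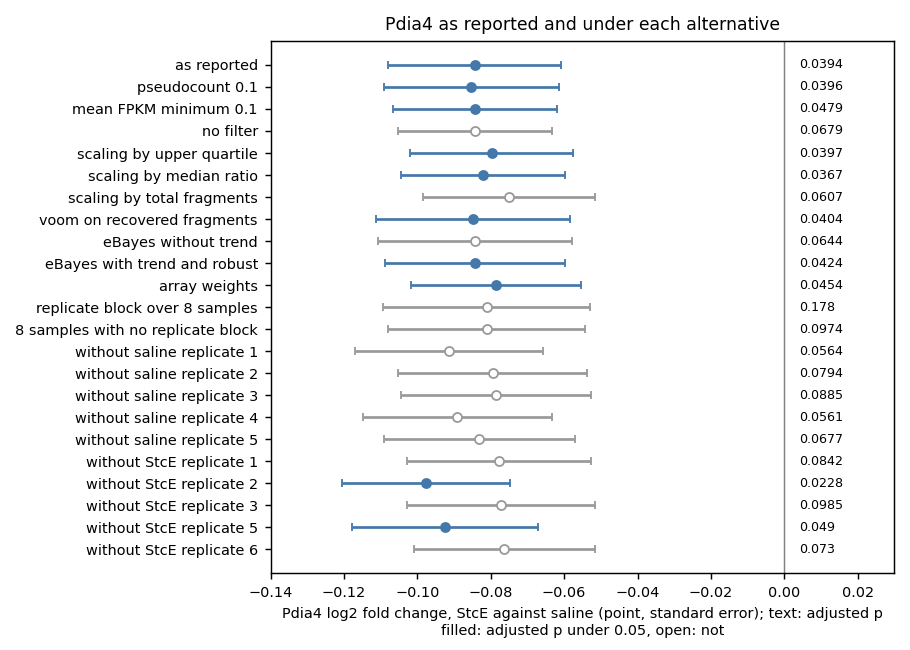
Log2 fold change of *Pdia4* (horizontal axis, point and standard error) as reported and under each of the 22 alternatives (rows), with the adjusted p beside each. All points lie between -0.098 and -0.075, and 9 of the 22 alternatives pass the threshold (filled points).

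*Sdf2l1* (ENSMUSG00000022769.9, chr16:17130138-17132383), a partner of luminal J-domain co-chaperones, had 30.5, 35.3, 31.5, 30.5 and 38.1 FPKM with saline and 33.3, 33.6, 30.2, 31.3 and 29.8 FPKM with StcE. It had the widest spread of the 10 genes with saline, with a coefficient of variation (SD over mean) of 10.2%, where counting alone gives about 3.15% at its median of fragments. On the log2 scale the difference was -0.062 (95% interval -0.20 to 0.073, limma adjusted p = 0.560).

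*Dnajb9* (ENSMUSG00000014905.4, chr12:44205559-44210326) encodes ERdj4, a J-domain co-chaperone of BiP whose gene depends on IRE1 and XBP1. Its FPKM was 7.96, 7.97, 7.58, 8.06 and 8.26 with saline and 8.09, 7.49, 8.43, 7.92 and 8.24 with StcE, and the groups overlapped widely. Its log2 fold change was 0.010 (95% interval -0.062 to 0.083, limma adjusted p = 0.877). The arms were set against each other through the log2 ratio of *Dnajb9* to *Hspa5* within each sample, which was -4.58 ± 0.0349 with saline and -4.58 ± 0.0792 with StcE (SD, n = 5 each). The groups differed by 0.0051 (exact two-sided permutation test, p = 0.889), less than the spread between samples.

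*Herpud1* (ENSMUSG00000031770.16, chr8:94386438-94395377) encodes HERP, an ER membrane protein of ER-associated degradation. It had 14.1, 13.4, 14.2, 12.9 and 13.4 FPKM with saline and 13.96, 13.6, 13.0, 13.2 and 11.7 FPKM with StcE. StcE replicate 6 was the lowest of all 10 samples, and the others lay within the saline range. The log2 fold change came to -0.055 (95% interval -0.15 to 0.040, limma adjusted p = 0.452).

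**Figure D3:**
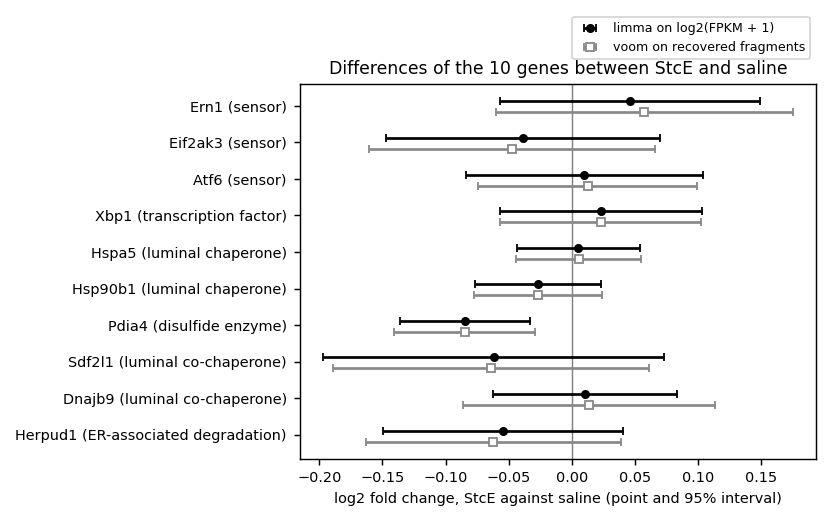
Log2 fold change between StcE and saline with its 95% interval (horizontal axis) for each gene (rows), from limma on log2(FPKM + 1) (black) and from voom on recovered fragments (open squares). The interval of *Pdia4* lies below 0 in both fits, and those of the other 9 genes include 0.

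The intervals bound the changes that these samples allow. For the 9 genes that did not pass the test, the highest upper end on log2(FPKM + 1) was a fold of 1.11, for *Ern1*. The lowest lower end was a fold of 0.872, for *Sdf2l1*. That scale understates changes at low FPKM, and voom gave *Ern1* an upper end of 0.18 in log2, against 0.15. The narrowest interval was that of *Hspa5*. None of these 9 genes passed the threshold in any of 198 refits (22 alternatives for each). Because *Hspa5* and *Pdia4* share an arm of the response, the log2 ratio of *Pdia4* to *Hspa5* within each sample was also compared, a test chosen after the values were seen. It was -1.34 ± 0.0271 with saline and -1.43 ± 0.0312 with StcE (SD, n = 5 each), with a difference of -0.090 and no overlap between groups (exact two-sided permutation test, p = 0.00794). With *Hspa5* almost equal between groups, this ratio largely repeats the difference of *Pdia4* and is no separate support for it.

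The genes also varied within each group. Of the 5 genes whose proteins act in the ER lumen, *Hspa5*, *Hsp90b1*, *Pdia4* and *Sdf2l1* were all above their group mean in saline replicate 2, saline replicate 5 and StcE replicate 2. These 4 were below it in saline replicate 1, StcE replicate 3 and StcE replicate 6. *Dnajb9*, the fifth, went the other way in the StcE samples, at -6.72% in replicate 2, 4.90% in replicate 3 and 2.58% in replicate 6. The 4 genes were grouped after these values were seen. The deviations were small for *Hspa5*, from -2.75% to 2.68%, and larger for *Sdf2l1*, from -8.13% to 14.8%. The sensors *Ern1* and *Eif2ak3* were both lowest in saline replicate 5, at -12.2% and -11.7% of the group mean, the sample in which *Sdf2l1* was highest. All genes of a sample share its library and depth, and these deviations are a description.

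**Figure D4:**
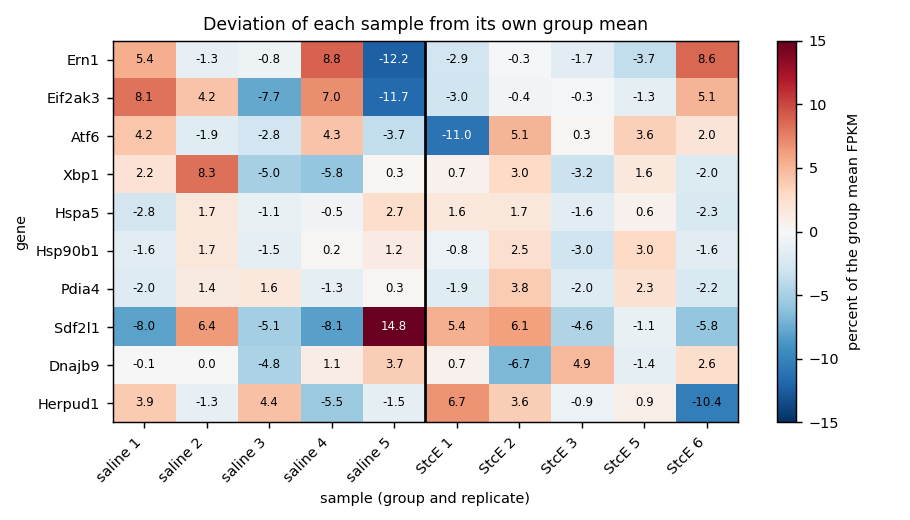
Deviation of each sample (columns, group and replicate) from the mean FPKM of its own group, in percent, for each gene (rows), with red above and blue below the mean. *Hspa5*, *Hsp90b1*, *Pdia4* and *Sdf2l1* are above their mean together in saline replicates 2 and 5 and StcE replicate 2, where the luminal gene *Dnajb9* is at -6.72%, and *Sdf2l1* spans the widest range, from -8.13% to 14.8%.

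Other genes of the response were followed in 8 lists that hold none of the 10. Of their 83 genes, 76 were tested, of which 4 rose, 7 fell and 65 did not pass the test, so that 14.5% passed against 11.9% of all genes. The median log2 fold change over the 76 was -0.014. No list holds another's genes, and the counts that follow use limma with adjustment over all 11062 genes.

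The list of the PERK arm held most of the increases. Of its 10 tested genes, 3 were higher and the other 7 did not pass the test, where 5.52% of all genes were higher. Whether PERK signalling lay behind these increases was not tested. *Atf4*, the transcription factor translated when eIF2α is phosphorylated, was at 62.3 to 66.5 FPKM with saline and 74.1 to 80.5 with StcE, with no overlap. It rose from 64.8 ± 1.54 to 77.1 ± 2.72 FPKM (SD, n = 5 each), a log2 fold change of 0.25 (95% interval 0.19 to 0.31, limma adjusted p = 2.4e-04). *Chac1*, an enzyme that degrades glutathione and a target of ATF4, rose by 0.15 on the log2 scale (limma adjusted p = 0.0295). With voom it was not past the threshold (adjusted p = 0.0916), on 176 to 324 fragments per sample. It also lost its call when saline replicate 2, 3 or 4 or StcE replicate 1 or 5 was left out. *Eif2s1*, the gene of eIF2α itself, rose by 0.11 (limma adjusted p = 0.0201), a call that ended without saline replicate 1 or StcE replicate 3. Copies of at least 95% identity in *Gm12734* and *Gm7459* cover 27.9% of the *Eif2s1* transcript, so its level is uncertain.

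The remaining PERK arm genes did not pass the test. *Ddit3*, which encodes CHOP and is induced late in ER stress, had means of 5.86 FPKM with saline and 6.05 with StcE (log2 fold change 0.039, 95% interval -0.051 to 0.13, limma adjusted p = 0.589). *Trib3* had a log2 fold change of 0.16 (adjusted p = 0.144), *Atf3* of 0.10 (0.254) and *Ppp1r15a*, a phosphatase subunit that reverses eIF2α phosphorylation, of 0.078 (0.253), all by limma. *Sesn2* went the other way at -0.13 and was near the threshold (limma adjusted p = 0.0526, voom adjusted p = 0.0436), without overlap between groups. The median of the list was 0.089, and 9 of its 10 genes had a log2 fold change above 0.

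Beside *Atf6*, its paralogue *Atf6b* fell from 30.7 ± 0.725 to 27.2 ± 1.01 FPKM (SD, n = 5 each). The log2 fold change was -0.17 (95% interval -0.23 to -0.11, limma adjusted p = 0.00304), and no StcE sample reached the saline range. The log2 ratio of *Atf6b* to *Atf6* within each sample, chosen for testing after the values were seen, was 0.97 ± 0.0553 with saline and 0.79 ± 0.124 with StcE (SD, n = 5 each; exact two-sided permutation test, p = 0.0317). With the means of *Atf6* almost equal, this ratio largely repeats the fall of *Atf6b*. The other 5 genes of ATF6 processing and its partners did not pass the test, so that 16.7% of this list passed, against 11.9% of all genes. The log2 fold change was -0.072 for *Mbtps1* (limma adjusted p = 0.146) and 0.011 for *Mbtps2* (0.883). *Creb3l2*, a membrane-bound factor of the OASIS family that is activated by the same proteases, fell from 20.8 to 18.1 FPKM, or by 0.19 on the log2 scale (limma adjusted p = 0.00791), and *Creb3* did not pass the test (-0.041, 0.404).

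Around IRE1, 1 of 6 tested partners and regulators passed the test (16.7%, against 11.9% of all genes). It was *Wfs1*, an ER membrane protein, which fell by 0.12 on the log2 scale (limma adjusted p = 0.0419). Its groups overlapped, and 9 of 22 alternative fits passed the threshold. Of the fits that left out 1 sample, those without saline replicate 2 and without StcE replicate 2 passed it. The adjusted p of *Rtcb*, the ligase that joins the spliced *Xbp1* exons, was 0.824 at a log2 fold change of -0.0095. Of 15 genes raised by XBP1 for translocation, folding and transport, 6.67% passed, against 11.9% of all genes. *Serp1*, which stabilises membrane proteins during translocation, rose by 0.098 (limma adjusted p = 0.0194), and the other 14 did not pass. Without StcE replicate 3 *Serp1* was no longer past the threshold. *Edem1*, often used to follow XBP1, was at 14.4 to 15.1 FPKM with saline and 14.4 to 14.9 with StcE (log2 fold change 9.2e-04, 95% interval -0.046 to 0.048, limma adjusted p = 0.985).

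Of 12 further ER chaperones and calcium-binding factors 8.33% passed the test, against 11.9% of all genes. *Calr*, the lectin chaperone calreticulin, fell from 287.8 ± 6.57 to 272.1 ± 4.49 FPKM (SD, n = 5 each; log2 fold change -0.080, limma adjusted p = 0.0379), and 8 of its 22 alternative fits passed the threshold, among them those without saline replicate 3 and without StcE replicate 2 but no other that left out 1 sample. Its partner *Canx* (log2 fold change -0.043) and *Hyou1*, the nucleotide exchange factor of BiP (-0.050), did not pass, with limma adjusted p of 0.241 and 0.186. Of 7 tested disulfide enzymes 14.3% passed. *Txndc5*, a protein disulfide isomerase and the largest decrease in the 8 lists, fell from 36.9 ± 1.29 to 31.4 ± 1.28 FPKM (SD, n = 5 each; log2 fold change -0.23, limma adjusted p = 0.00139). It passed the threshold in all 22 alternative fits, while *Bmp6* and *Gm31834* on the opposite strand share 11.9% of its exon length. *P4hb*, the most studied disulfide isomerase, was at 269.6 and 268.2 FPKM (log2 fold change -0.0076, 95% interval -0.055 to 0.039, limma adjusted p = 0.856).

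In ER-associated degradation, 2 of 18 tested genes fell and the other 16 did not pass the test, so that 11.1% passed against 11.9% of all genes (6.41% lower). *Os9*, a lectin that recognises glycoproteins for degradation, fell from 60.0 ± 2.22 to 53.6 ± 2.14 FPKM (SD, n = 5 each; log2 fold change -0.16, limma adjusted p = 0.0101). *Edem2*, which starts the mannose trimming of such glycoproteins, fell from 21.8 ± 0.318 to 19.9 ± 0.727 FPKM (SD, n = 5 each; log2 fold change -0.13, limma adjusted p = 0.0128). For both genes the groups did not overlap. *Edem3* (log2 fold change -0.17, limma adjusted p = 0.0711) and *Sel1l* (-0.14, 0.0868) did not pass, and the ubiquitin ligase *Syvn1* had -0.024 (0.657). With voom, *Edem3* (adjusted p = 0.0281) and *Sel1l* (0.0398) passed as well, which made 4 calls in this list.

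**Figure D5:**
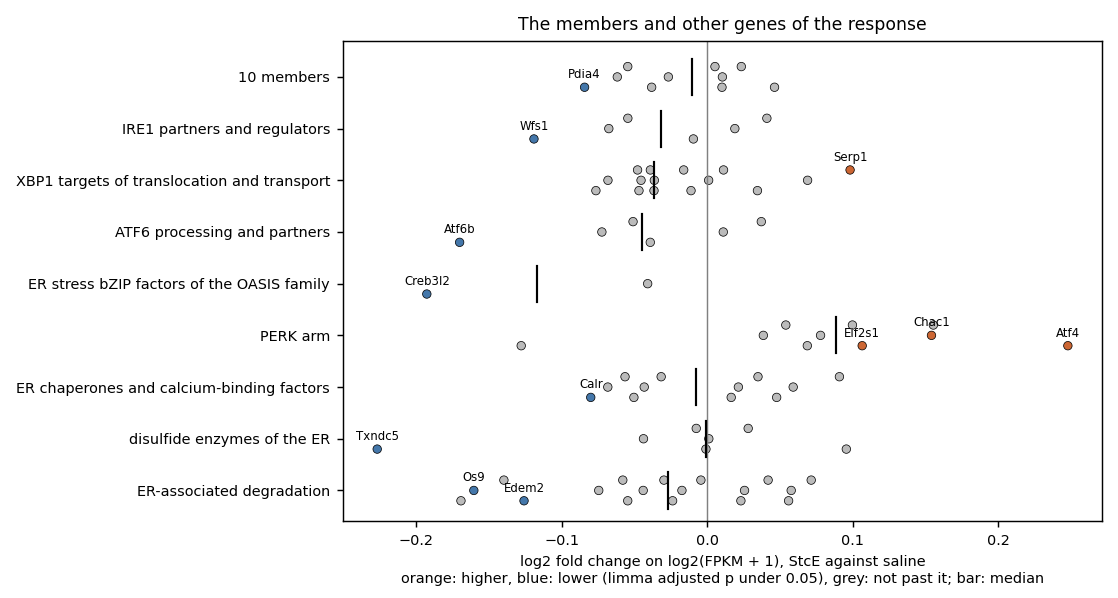
Log2 fold change on log2(FPKM + 1) (horizontal axis) of each tested gene of the 10 members and of the 8 lists (rows), with the median of each row as a bar, increases past the threshold in orange and decreases in blue. The PERK arm has its median at 0.089, and *Pdia4* (-0.084) is the sole coloured point among the 10 members.

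The ERSE letters also marked several of these effectors. Of the 83 genes of the lists, 66 had a RefSeq promoter to search and 8 of these held ERSE, and 6 of these were tested under the symbols *Calr*, *Canx*, *Creld2*, *Dnajc3*, *Pdia6* and *Syvn1*. The 9 sites of these genes and of *Hspa5* and *Hsp90b1* are given below, read from CCAAT to CCACG with the fixed letters in capitals, to show how the spacer differs between genes that share the element.
*Hspa5* (chr2:34772025-34772043): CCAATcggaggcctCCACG
*Hsp90b1* (chr10:86705638-86705656): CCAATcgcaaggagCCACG
*Hsp90b1* (chr10:86705533-86705551): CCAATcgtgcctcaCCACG
*Calr* (chr8:84847075-84847093): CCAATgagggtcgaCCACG
*Canx* (chr11:50325800-50325818): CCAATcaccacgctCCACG
*Creld2* (chr15:88819520-88819538): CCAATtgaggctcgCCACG
*Dnajc3* (chr14:118937827-118937845): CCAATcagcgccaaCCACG
*Pdia6* (chr12:17266491-17266509): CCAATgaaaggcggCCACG
*Syvn1* (chr19:6046532-6046550): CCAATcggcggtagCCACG

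Of all 37 genes with ERSE in a promoter, a list made after the values were seen, 23 were found by symbol and 13 were tested. Older names were not searched for this list. *Calr* fell and the other 12 did not pass, so that 7.69% passed against 11.9% of all genes. The median log2 fold change of the 13 was -0.032, against -6.6e-04 over all genes tested, with a range from -0.080 to 0.13. Of the 13, 10 were below 0, and no test of the set was made. The 13 include genes outside the lists, among them *Zfp57* with the highest value. Without *Hspa5* and *Hsp90b1*, the median of the other 11 was -0.033.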

How the data were processed

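Per the labels and the methods, poly-adenylated RNA of 10 samples was made into strand-specific libraries, and trimmed read pairs were aligned to GRCm38. The submitters' processing notes name HISAT2 2.0.5, featureCounts 1.5.0-p3 and DESeq2 1.32.0. The annotation release and the strand setting are not given in the sources used here. The authors deposited FPKM per sample for 27024 named rows, with 22874 further rows empty. Multiplied by GENCODE vM21 exon lengths, 97.0% of the values above 0 were whole fragments within 0.1, including those of all 10 genes in every sample. Over genes with whole fragments in every sample, these came to 21865204 to 33148306 per sample. For voom the depth was the one implied by the FPKM scale. The intervals given for voom include the spread between samples.

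With limma 3.58.1 in R 4.3.3, log2(FPKM + 1) was compared for genes with a mean of at least 1 FPKM (eBayes with trend, condition as the sole term, Benjamini-Hochberg adjustment, threshold 0.05), after checks on simulated data. Single differences were also tested by exact permutation over 252 arrangements. The 10 genes and the lists were chosen with earlier results of these data known. All 10 genes are named with their values, and from each list every gene past the threshold, at most 4 in each direction. Other list genes are named with their values, some chosen after these were seen. Of the listed symbols, 3 were matched by an older name. Near-identical copies (at least 95% identity over 150 bases) were searched with BLAST 2.17.0. Alternatives were a pseudocount of 0.1, a minimum of 0.1 FPKM, no filter, 3 scalings, voom, a robust eBayes, array weights, eBayes with no trend, a replicate block, and each sample left out. The log2 ratio of the mean FPKM was added after seeing the data.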

Additional observations from a re-analysis of the deposited data

Results flagged for a closer look

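*Ern1* in StcE replicate 6 was at 3.18 FPKM, apart from the other StcE samples at 2.82 to 2.92 FPKM, with a gap of 0.718 of the group's range. It was the sole such sample in 42 groups of 5 examined, where chance gives about 1 in 20 groups.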

How the results depend on the processing

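The log2 fold change of *Pdia4* was below 0 in all 22 alternatives. The threshold was missed with no filter or no trend (-0.084 in both), with scaling by total fragments (-0.075), or over the 8 samples with shared replicate numbers, with or without the replicate block (-0.081 in both). Under these 5 alternatives the number of the 10 genes past the threshold was 0 in place of 1, and it was 0 to 1 when 1 sample was left out. Leaving out 1 sample gave -0.098 to -0.076 for *Pdia4*. Of the other 9 genes, *Atf6* (-0.0072 to 0.049), *Hspa5* (-0.0047 to 0.015) and *Dnajb9* (-0.0052 to 0.032) changed sign when 1 sample was left out, and none passed the threshold. The difference of *Dnajb9* against *Hspa5* was -0.0060 with the replicate block and -0.016 to 0.033 without 1 sample.

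Over all genes, 1320 were past the threshold, 801 without a filter, 349 with the replicate block over 8 samples and 885 for these samples without it, and 793 (without StcE replicate 3) to 1255 without 1 sample, with 838 without saline replicate 1. Samples with the same number did not pair (correlations of their deviations over 11062 genes of -0.11, -0.021, -0.014 and 0.012), and a call lost with the block is given as a count only.

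With the block, the calls went to 0 in the lists of IRE1 partners, XBP1 targets, ATF6 partners, OASIS factors, chaperones and ER-associated degradation (from 1, 1, 1, 1, 1 and 2) and from 3 to 1 in the PERK arm. The *Calr* call (chaperones) went to 0 with a minimum of 0.1 FPKM, no filter, total fragments, no trend and the 8 samples without the block, and the *Wfs1* call (IRE1 partners) to 0 with a minimum of 0.1 FPKM, no filter, the upper quartile and the 8 samples without the block. Voom gave 4 calls in place of 2 in ER-associated degradation. Without 1 sample the calls were 0 to 1 for IRE1 partners, XBP1 targets and chaperones, 2 to 3 for the PERK arm and for ER-associated degradation, and 1 in the other lists. With scaling by total fragments, 48.5% of all calls were lower, against 53.7% as deposited. Voom called 1494 of 10449 genes. Some fits held fewer samples or more genes, and the cause of these differences between fits was not tested. The number of samples limits these intervals.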

Other observations

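The UPRE letters TGACGTGG, searched on both strands, were found in the promoters of 193 genes (0.714% of those with a promoter) and in none of the 9 members with a promoter. Of these 193 genes, 130 were found by symbol and 84 were tested. Of the 84, 5 were higher and 4 lower, or 10.7% against 11.9% of all genes, and *Txndc5* was among them. Of the 12 genes with ERSE-II, 10 were found by symbol and 9 were tested. Of these 9, 1 was lower, or 11.1% against 11.9% of all genes (6.41% lower). *Ern2*, the paralogue of *Ern1* that is typical of mucosal epithelium, was at 0.00266 FPKM with saline and 0.00582 with StcE, below the 0.0857 to 0.131 FPKM that 3 fragments give on a gene of 1 kilobase.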
